A study of Mus musculus with 6 samples.

Results

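Clustered histone genes encode the linker histone H1 and the core histones H2A, H2B, H3 and H4. They lie in groups on the chromosomes and were taken here as the rows whose symbol is H1f1 to H1f6 or begins with H2ac, H2bc, H3c or H4c followed by a number. The rule uses symbols and no measured value, and it found 67 genes of 35431 rows whose values could be read. RefSeq (GRCm38.p6) places 53 of them on chromosome 13 and 10 on chromosome 3, and the other 4 symbols (H2ac25, H2bc24, H2bc27 and H4c16) had no entry there. The class sizes were 6 genes for H1, 18 for H2A, 18 for H2B, 12 for H3 and 13 for H4. In 20 of the 67 genes the value exceeded 0 in all 6 libraries. In 37 it exceeded 0 in some of the libraries, and 10 were at 0 in every library.

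Bone marrow-derived macrophages (BMDMs) are macrophages grown in culture from marrow cells, here from femurs of C57BL/6 mice with M-CSF. The Ctrl group was 3 libraries without treatment, and the ZA group was 3 libraries 12 h after addition of zoledronic acid (ZA), a bisphosphonate that blocks farnesyl pyrophosphate synthase of the mevalonate pathway. The mice's age, the ZA concentration and whether libraries of a group came from separate animals or cultures are not given for these libraries, so p-values measure the spread between libraries, which may be technical. Values are FPKM, that is fragments per unit of gene length and of sequencing depth. The libraries held 41230600 to 42155808 fragments. Macrophage genes were high in every library (Csf1r 767.3 to 848.0 FPKM, Adgre1 525.8 to 593.3), while the summed level of 6 lymphocyte markers was 0.665 to 1.08 in Ctrl and 0.438 to 0.905 in ZA. The summed level of 13 neutrophil and myeloid progenitor markers was 38.1 to 53.7 FPKM in Ctrl and 33.9 to 39.1 in ZA, of 6 stromal markers 18.3 to 32.8 and 16.6 to 23.6, and of 4 erythroid markers 0.396 to 2.66 and 0.825 to 1.9. Of the markers that could be tested, 4 of 7 neutrophil and progenitor genes and 1 of 4 stromal genes were lower in ZA at an unadjusted p under 0.05, and 3 of 9 macrophage genes were higher. Of all 9797 genes tested, 4.85% were lower and 7.5% higher at this threshold. The part of these cells in the histone values was not tested.

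Most clustered histone genes are switched on as cells enter S phase, when new DNA needs new nucleosomes. Their mRNAs carry no poly(A) tail. They end just after a short stem-loop that is bound by the stem-loop binding protein SLBP, and they are degraded when DNA synthesis stops. A few of these genes also give longer, polyadenylated mRNAs in cells that have left the cycle. The labels name a VAHTS RNA-seq kit and a SMARTER mRNA kit, and whether RNA was selected by its poly(A) tail is not stated.

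The 20 genes above 0 in all libraries were searched for the stem-loop, after the stop codon of the longest matched GENCODE M21 transcript (GRCm38). It was taken as 2 G and 4 other bases, a loop of 4 bases and the reverse complement. A transcript was found for 19 genes (H2bc27 was not matched), and 15 of them held the stem-loop, between 24 and 58 bases after the stop codon. It had 3 forms of 16 bases, of which 1 was shared by 13 genes and the other 2 were those of H4c8 and H4c9. The sites below, each in the 3' UTR, are shown because they set the genes' usual mRNA end, with the stem-loop in capitals and 5 bases on each side.
H1f2 (chr13:23739507-23739532, plus strand): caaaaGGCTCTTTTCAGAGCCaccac
H2ac19 (chr3:96239779-96239804, minus strand): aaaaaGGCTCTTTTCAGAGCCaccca
H2bc8 (chr13:23571838-23571863, plus strand): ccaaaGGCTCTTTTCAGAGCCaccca
H3c15 (chr3:96238480-96238505, minus strand): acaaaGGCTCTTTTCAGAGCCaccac
H4c8 (chr13:23531453-23531478, plus strand): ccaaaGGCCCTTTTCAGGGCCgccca
H4c9 (chr13:22040961-22040986, minus strand): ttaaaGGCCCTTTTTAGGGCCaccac

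No such stem-loop was found after the stop codon in the longest matched transcript of H2bc4, H2bc21 or H2bc23, and that of H4c12 ends at its stop codon. Any other transcripts of these genes were not searched. The length behind the deposited H2bc4 values was 774 bases, against 1156 for the transcript searched. The GENCODE transcript of H1f2 runs on for 840 bases past its stem-loop and has the polyadenylation signal AATAAA within its last 50 bases. The length behind the deposited H1f2 values was 725 bases, which equals the RefSeq gene that ends just after the stem-loop. A length could be recovered for 57 genes, and for 44 of the 54 that RefSeq also lists it was the same as the RefSeq span.

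Together the clustered histone genes reached a summed level of 153.0, 146.5 and 139.3 FPKM in Ctrl 1 to 3 and of 137.7, 133.5 and 125.3 FPKM in ZA 1 to 3. Every ZA library was below every Ctrl library, with means of 146.2 ± 6.86 (SD, n = 3) and 132.2 ± 6.33 (SD, n = 3), and the highest ZA library lay just under the lowest Ctrl library. No test was run on the sum, and the genes were chosen with earlier results of these data known. H1f2 and H2bc4 alone made up 85.8% to 88.4% of it in each library. Without these 2 genes the sum came to 17.7, 17.1 and 18.6 FPKM in Ctrl and 18.1, 15.9 and 17.8 FPKM in ZA, and the groups overlapped. In a bulk culture, fewer cells that express a gene and less mRNA per cell cannot be told apart.

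**Figure D1:**
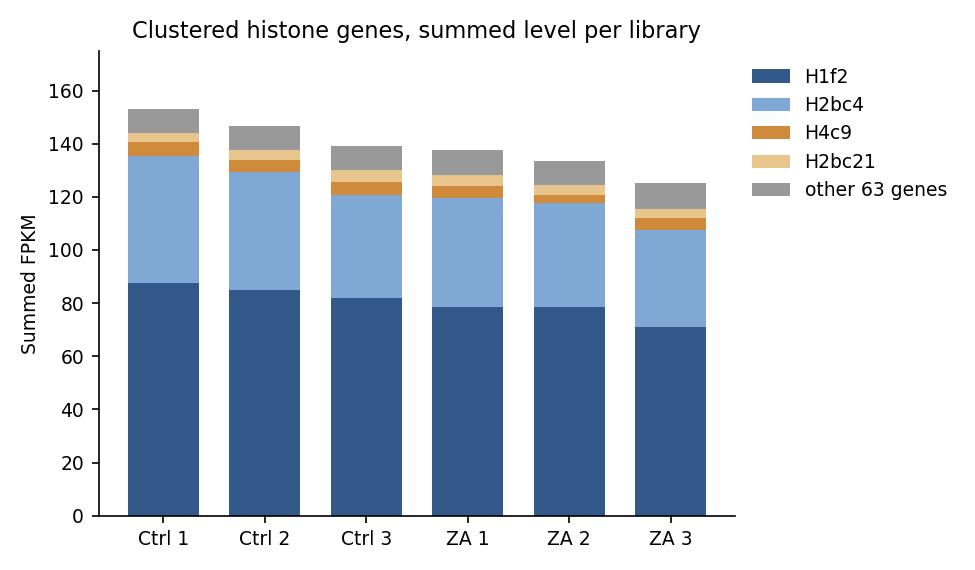
Summed FPKM of the 67 clustered histone genes (vertical axis) in each of the 6 libraries, stacked by gene. H1f2 and H2bc4 fill most of every bar, and the bars of the 3 ZA libraries (125.3 to 137.7 FPKM) are lower than those of the 3 Ctrl libraries (139.3 to 153.0 FPKM).

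By class, H1 took 58.2% ± 0.877 (SD, n = 3) of the summed FPKM in Ctrl and 57.6% ± 1.04 (SD, n = 3) in ZA. H2B took 34.1% ± 1.43 and 34.2% ± 0.156, H4 4.38% ± 0.0646 and 4.12% ± 0.72, H2A 1.85% ± 0.0981 and 2.49% ± 0.404, and H3 1.52% ± 0.628 and 1.55% ± 0.258 (SD, n = 3 per group). H1 and H2B came first and H4 next in both groups. By position, the genes of chromosome 13 summed to 130.1 to 145.5 FPKM in Ctrl and 117.2 to 128.8 in ZA. Those of chromosome 3 summed to 7.32 to 9.09 FPKM in Ctrl and 8 to 8.82 in ZA, with overlap. The chromosome 13 sum, with a Ctrl mean of 138.0 FPKM, was mostly H1f2 and H2bc4 (Ctrl means of 84.8 and 43.6). Without these 2 genes the sum of all clustered histone genes overlapped between the groups.

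Differences between the groups were taken from limma on log2(FPKM + 1) fitted to 9797 genes whose FPKM averaged 1 or more over the libraries, and p-values were adjusted over all of them by Benjamini-Hochberg. A difference on this scale understates the change of genes near 1 FPKM. Of the histone genes, 8 passed the filter: H1f2, H2ac18, H2ac19, H2bc4, H2bc8, H2bc21, H3c15 and H4c9. Over all genes tested, 0.204% were called higher and 0.163% lower in ZA at an adjusted p under 0.05. Among the 8, H2ac19 was called higher and none lower. With means of 0.85 FPKM in Ctrl and 1.6 in ZA, H2ac19 passed the filter only through its ZA values. At an unadjusted p under 0.05, 1 of the 8 was higher and 1 lower, where 7.5% and 4.85% of all genes were. All 3 ZA values lay above all 3 Ctrl values in 1 of the 8 and below them in 1, where the shares of all genes were 11.4% and 6.76%. The mean was lower in ZA in 6 of the 8 genes, where it was lower in 43.1% of all genes, and the median difference of the 8 was -0.07 against 0.01 over all genes tested. H2ac19 was also the gene counted as higher at the unadjusted p and as having all ZA values above Ctrl. With 8 genes these counts say little about the clustered histone genes as a group.

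**Figure D2:**
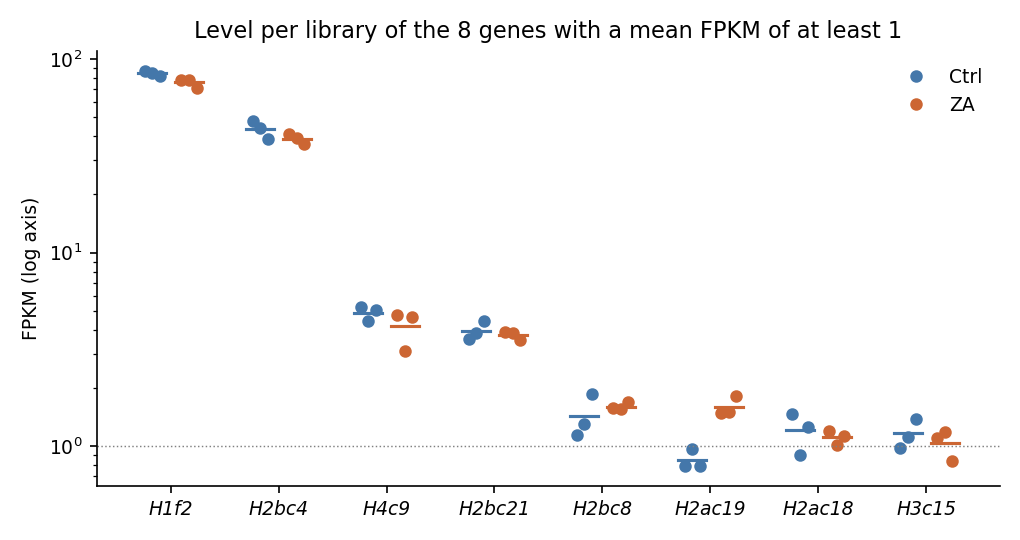
FPKM on a log axis of the 8 clustered histone genes with a mean of at least 1 FPKM (dotted line), 1 point per library and a short bar at the mean of 3 libraries. H1f2 and H2bc4 lie far above the other 6 genes, and the Ctrl and ZA points are apart only for H1f2 and H2ac19.

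H1f2 (Hist1h1c, chr13:23738807-23739531, plus strand, a gene without introns) encodes the linker histone H1.2, which binds DNA where it enters and leaves the nucleosome. It stood at 87.4, 85.1 and 82.1 FPKM in the Ctrl libraries and at 78.5, 78.4 and 70.9 FPKM in the ZA libraries, with 2168 to 2639 fragments per library. All ZA values were below all Ctrl values, and it ranked 697th of the 9797 tested genes by mean level. The difference in log2(FPKM + 1) was -0.16 (SE 0.04, 95% interval -0.26 to -0.06), and it did not pass the adjustment over all genes (limma adjusted p = 0.203, between 0.0516 and 0.439 over the alternatives). No 150-base stretch of its transcript, the length of 1 read, occurs in a transcript of another GENCODE gene.

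The other linker histones of the clusters were close to the detection limit. At the median length of the clustered genes, 490 bases, 3 fragments correspond to 0.147 FPKM. H1f3 (H1.3) had 1 to 6 fragments per library and 23 in all. H1f4 (H1.4) had 2, 1 and 1 fragments in Ctrl and 2, 2 and 6 in ZA, which differ by no more than a few fragments. H1f1 and H1f5 had 2 and 5 fragments over all libraries, and H1f6, the testis form, was at 0.

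Among the H2A genes, H2ac18 and H2ac19 were the only ones past the filter. They lie on chromosome 3 in opposite directions (H2ac19 at chr3:96239779-96240374 on the minus strand, H2ac18 at chr3:96245497-96246052 on the plus strand), each followed by an H3 gene, H3c15 and H3c14. Their 393-base coding sequences have 0 differences, and the whole 528-base GENCODE transcript of H2ac19 is contained in that of H2ac18. Every 150-base stretch of H2ac19 thus occurs in H2ac18, so its reads cannot be assigned with certainty to it rather than to H2ac18. Every stretch of H2ac18 occurs in another gene, which is not always H2ac19. The lengths behind the deposited values were 574 bases for H2ac19 and 587 for H2ac18, against 528 and 586 for the transcripts searched. H2ac19 was listed at 0.794, 0.964 and 0.792 FPKM in Ctrl and at 1.48, 1.51 and 1.82 FPKM in ZA, from 19, 23 and 19 against 35, 36 and 44 fragments. The groups did not overlap. The difference in log2(FPKM + 1) was 0.49 (SE 0.07, 95% interval 0.33 to 0.65, limma adjusted p = 0.0486). Its Ctrl mean was 0.85 FPKM, so it passed the filter only through the ZA values. The call was lost on leaving out any 1 of the 6 libraries (limma adjusted p = 0.0517 to 0.183), and over all alternatives the adjusted p ran from 0.0408 to 0.248.

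H2ac18 was listed at 1.47, 0.902 and 1.26 FPKM in Ctrl and at 1.2, 1.02 and 1.13 FPKM in ZA. The groups overlapped (difference -0.06, 95% interval -0.27 to 0.16, limma adjusted p = 0.853), and the difference was 0.03 without Ctrl replicate 1. Counted as 1 gene, the pair had 55, 45 and 50 fragments in Ctrl and 64, 61 and 72 in ZA, again without overlap. With the FPKM of the pair summed into 1 gene, in a fit chosen after the values were seen, the difference in log2(FPKM + 1) was 0.28 (95% interval 0.13 to 0.43, limma adjusted p = 0.131), against 0.49 for H2ac19 alone. On the log2 scale of fragments, fitted with limma voom, the difference was 0.90 for H2ac19 alone (limma adjusted p = 0.11), -0.09 for H2ac18 and 0.39 for the pair (95% interval -0.01 to 0.79, limma adjusted p = 0.387). The pair was called in neither fit, and H2ac19 alone was called in the first and not in voom.

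**Figure D3:**
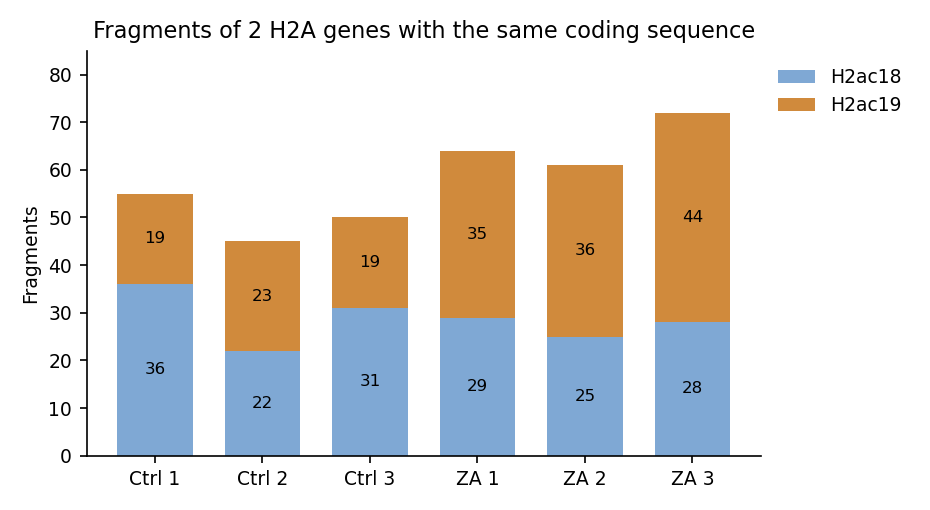
Fragments assigned to H2ac18 and H2ac19 (vertical axis, stacked) in each library, with the number in each part of the bar. The H2ac19 part is 19 to 23 in Ctrl and 35 to 44 in ZA, and the whole bar is 45 to 55 in Ctrl and 61 to 72 in ZA.

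Of the other 16 H2A genes, H2ac8 alone was above 0 in every library, with 8, 12 and 13 fragments in Ctrl and 4, 6 and 10 in ZA, and the groups overlapped.

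H2B had the most genes above 0 in all libraries, 8 of 18. H2bc4 (Hist1h2bc, on chromosome 13) has a second exon in its longest matched GENCODE transcript and, as stated above, no stem-loop was found there. It stood at 47.9, 44.3 and 38.6 FPKM in the Ctrl libraries and at 41.0, 39.2 and 36.5 FPKM in the ZA libraries, from 1191 to 1546 fragments. The groups overlapped at 1 Ctrl library, and the difference was -0.16 (SE 0.07, 95% interval -0.33 to 0.01, limma adjusted p = 0.446). It was -0.09 without Ctrl replicate 1 and -0.24 without Ctrl replicate 3. Of its 150-base stretches, 17.4% occur in other H2B genes, among them H2bc8. H2bc21 (Hist2h2be, chr3:96221072-96223738), also without a stem-loop in the transcript searched, was at 3.59, 3.85 and 4.43 FPKM in Ctrl and 3.89, 3.87 and 3.55 FPKM in ZA. Its groups overlapped (difference -0.05, 95% interval -0.20 to 0.10, limma adjusted p = 0.792), and none of its stretches occurs elsewhere. The difference of H2bc21 was 0.01 without Ctrl replicate 3. H2bc8 (Hist1h2bg, chr13:23571400-23571863) was at 1.14, 1.3 and 1.86 FPKM in Ctrl and 1.57, 1.55 and 1.69 FPKM in ZA, also with overlap (difference 0.11, 95% interval -0.12 to 0.34, limma adjusted p = 0.698), and its difference was 0.02 without Ctrl replicate 1 and 0.23 without Ctrl replicate 3. The remaining H2B genes above 0 in all libraries, H2bc6, H2bc7, H2bc9, H2bc23 and H2bc27, had 74, 14, 25, 12 and 8 fragments over the 6 libraries.

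H3 is the core histone whose tail carries many of the known methyl and acetyl marks. H3c15 (Hist2h3c2, chr3:96238479-96239127) was at 0.985, 1.12 and 1.39 FPKM in Ctrl and 1.11, 1.18 and 0.839 FPKM in ZA. The groups overlapped (difference -0.09, 95% interval -0.29 to 0.12, limma adjusted p = 0.74, difference -0.01 without Ctrl replicate 3 or ZA replicate 3). Of the 150-base stretches of H3c15, 59.4% occur in other genes, among them its copy H3c14. H3c14 had 12, 16 and 29 fragments in Ctrl and 30, 19 and 16 in ZA, and H3c4 had 15 in all. All 150-base stretches of the 1820-base H3c14 transcript occur in other genes, among them Gm20634 and H3c15. The fragments of H3c14 therefore cannot be assigned to it with certainty. The length behind the deposited H3c14 values was 664 bases. H4 pairs with H3 in the nucleosome, and its main gene was H4c9 (Hist1h4i, chr13:22040960-22041362). H4c9 was at 5.24, 4.42 and 5.05 FPKM in Ctrl and 4.75, 3.1 and 4.65 FPKM in ZA, from 52 to 88 fragments. Replicate 2 of ZA was the lowest library, the other ZA values fell within the Ctrl range, and the difference was -0.21 (SE 0.12, 95% interval -0.49 to 0.08, limma adjusted p = 0.539). Without that library the difference was -0.05. H4c8 had 29 fragments in all. H4c12 had 6, 4 and 2 fragments in Ctrl and 7, 8 and 11 in ZA. In the voom fit of all genes above 0 in every library, also added later, its log2 difference was 1.11 (95% interval -0.03 to 2.25, limma adjusted p = 0.453). Of the 150-base stretches of H4c12, 53.4% occur in other genes, among them H4c8.

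**Figure D4:**
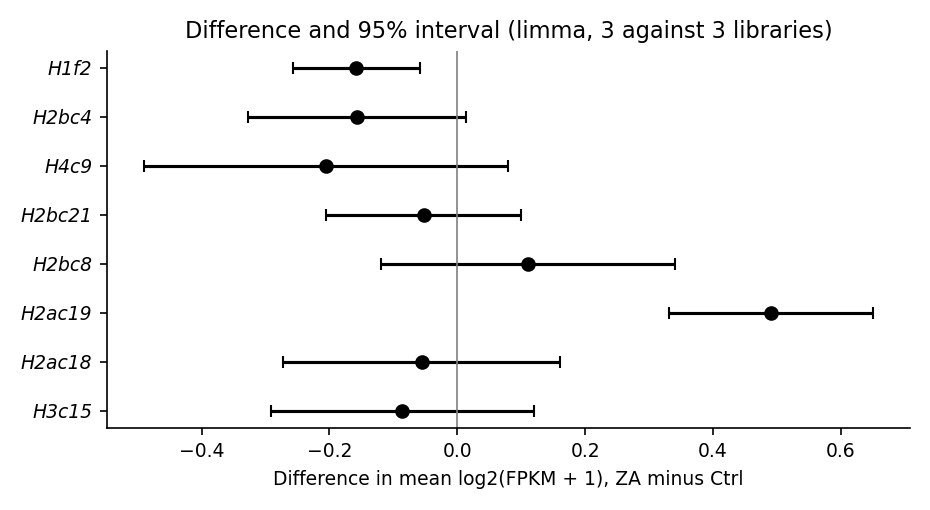
Difference in mean log2(FPKM + 1) between ZA and Ctrl (horizontal axis) with its 95% interval from limma, for the 8 clustered histone genes tested, 3 libraries per group. The interval of H1f2 (-0.26 to -0.06) lies below 0, that of H2ac19 (0.33 to 0.65) above 0, and the other 6 include 0.

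In order of mean level the 8 genes were H1f2 (80.4 FPKM), H2bc4 (41.3), H4c9 (4.54), H2bc21 (3.86), H2bc8 (1.52), H2ac19 (1.23), H2ac18 (1.17) and H3c15 (1.1). The lowest library of H1f2 was above the highest of H2bc4, and the same held for H2bc4 over H4c9 and for H2bc21 over H2bc8. The other neighbours in this order overlapped. The 59 genes that were not tested reached no more than 30 fragments in any library, and 43 of the 67 genes had fewer than 10 fragments over all 6 libraries. Summed, the 59 genes were at 4.47, 4.57 and 3.79 FPKM in Ctrl and 4.12, 3.65 and 4.16 FPKM in ZA, with overlap. Of the 12 among them that were above 0 in every library, the ratio of means was higher in ZA for 7 and lower for 5. None was called by limma without the filter on low values or by voom. At an unadjusted p under 0.05 there was 1, H4c12, without the filter and 0 with voom. The shares of all genes at this threshold in these fits are not given here.

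The region before the start of a histone gene holds the elements through which transcription factors reach it, such as CCAAT boxes, TATA boxes, the octamer of H2B promoters and the AAACACA element of H1 promoters. The 250 bases upstream of the RefSeq start (GRCm38.p6) were available for 58 of the 67 genes. On either strand CCAAT was found in 82.8% of them and in 33.8% of the 32851 promoters of all genes, TATAAA in 48.3% and 12.4%, ATTTGCAT in 20.7% and 1.6%, and AAACACA in 15.5% and 6.25%. These are letter matches and not sites shown to be bound. The upstream sequences of H1f2 and H2ac19, whose groups did not overlap, and of the most abundant H3 and H4 genes are given here with these 4 motifs in capitals. None was at hand for H2bc4.
H1f2 (chr13:23738557-23738806, plus strand): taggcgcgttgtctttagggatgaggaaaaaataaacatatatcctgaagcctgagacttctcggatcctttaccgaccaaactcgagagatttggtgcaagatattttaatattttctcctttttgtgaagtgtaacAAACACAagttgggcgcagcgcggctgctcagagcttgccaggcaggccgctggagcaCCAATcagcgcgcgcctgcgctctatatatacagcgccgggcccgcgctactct
H2ac19 (chr3:96240375-96240624, minus strand): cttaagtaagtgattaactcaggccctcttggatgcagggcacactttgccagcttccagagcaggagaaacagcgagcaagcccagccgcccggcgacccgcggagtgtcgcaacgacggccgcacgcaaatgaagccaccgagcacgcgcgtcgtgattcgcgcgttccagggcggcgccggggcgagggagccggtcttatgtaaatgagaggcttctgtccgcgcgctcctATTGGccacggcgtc
H3c15 (chr3:96239128-96239377, minus strand): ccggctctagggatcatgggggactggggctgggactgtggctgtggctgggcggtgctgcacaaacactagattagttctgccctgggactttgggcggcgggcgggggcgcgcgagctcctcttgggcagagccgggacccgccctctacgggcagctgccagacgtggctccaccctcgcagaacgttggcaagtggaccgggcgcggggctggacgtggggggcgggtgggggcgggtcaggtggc
H4c9 (chr13:22041363-22041612, minus strand): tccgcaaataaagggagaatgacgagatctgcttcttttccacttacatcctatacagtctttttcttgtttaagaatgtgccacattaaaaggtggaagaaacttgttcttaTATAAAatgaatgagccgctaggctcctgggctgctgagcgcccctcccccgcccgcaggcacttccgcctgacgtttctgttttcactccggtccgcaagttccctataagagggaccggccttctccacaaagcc

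H1f2 held 1 CCAAT and 1 AAACACA, H2ac19 1 CCAAT (read as ATTGG on this strand), H4c9 1 TATAAA, and H3c15 none of the 4. The upstream sequences of H2ac18 and H2ac19 share a run of 169 bases at different distances from the annotated starts.

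Most histone variants outside the clusters are made from polyadenylated mRNAs and not in S phase alone. Several stood far above the clustered genes of their class on the same FPKM scale. Whether RNA was selected by its poly(A) tail is not stated, and such selection would under-count mRNAs without a tail. The gaps in FPKM therefore cannot be read as relative amounts of mRNA in the cells. H3f3a and H3f3b, which both encode H3.3, were at 440.8 ± 16 and 134.5 ± 2.12 FPKM in Ctrl and 453.1 ± 10.9 and 130.3 ± 3.56 FPKM in ZA (SD, n = 3), while all clustered H3 genes summed to 2.19 ± 0.804 and 2.06 ± 0.433. H2az1, which encodes H2A.Z, was at 148.7 ± 0.584 and 144.5 ± 5.15 FPKM, against 2.7 ± 0.186 and 3.28 ± 0.368 for all clustered H2A genes. For the linker histones the order was turned, with H1f0 (H1.0) at 40.6 ± 1.71 and 42.9 ± 1.09 FPKM against 85.1 ± 2.73 and 76.2 ± 4.25 for the clustered H1 genes. H2ax was listed at 0 in every library. The annotation behind the values is not given, so this is not read as absence of its mRNA. Of 12 variant genes listed, 8 could be tested, and none had an adjusted p under 0.05 by limma. At an unadjusted p under 0.05, 0 were higher and 1 was lower, where 7.5% and 4.85% of all genes were. The median difference was -0.01, and voom on fragments called 1 gene. That gene was Cenpa, the H3 variant of centromeres, at 15.5, 16.5 and 15.6 FPKM in Ctrl and 13.5, 13.4 and 12.2 FPKM in ZA, without overlap (difference -0.26, limma adjusted p = 0.0671). H2aj was at 22.7 to 25.5 FPKM in Ctrl and 25.9 to 27.3 in ZA (difference 0.10, limma adjusted p = 0.448), and H1f0 differed by 0.08 (limma adjusted p = 0.441).

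The genes that make, process and degrade histone mRNA were near their Ctrl level. None of the 20 tested of 21 passed the adjusted threshold in limma, where 0.204% of all genes were called higher and 0.163% lower. At an unadjusted p under 0.05, 0 were higher and 1 was lower, where 7.5% and 4.85% of all genes were. Their median difference was -0.0023 (11 lower and 9 higher, where 43.1% of all genes had a lower mean). Voom on fragments also called 0. Slbp, the stem-loop binding protein, was at 17.1 ± 0.487 FPKM in Ctrl and 17.4 ± 0.401 in ZA (SD, n = 3; difference 0.02, 95% interval -0.06 to 0.09). Npat and Casp8ap2, which act in transcription and processing at the histone locus body, were at 2.74 ± 0.126 and 2.72 ± 0.13 FPKM in Ctrl and 2.55 ± 0.0891 and 2.45 ± 0.178 in ZA (limma adjusted p = 0.54 and 0.475). Ncbp2, a subunit of the cap-binding complex, was the 1 gene of the list with a low p, at 21.8 to 22.4 FPKM in Ctrl and 19.9 to 20.9 in ZA (difference -0.10, limma adjusted p = 0.223). Lsm10 of the U7 particle differed by 0.10 (limma adjusted p = 0.449) and Exosc10 of the nuclear exosome by 0.08 (limma adjusted p = 0.444).

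Histone chaperones carry new histones to DNA. None of 26 had an adjusted p under 0.05 in limma, where 0.204% of all genes were called higher and 0.163% lower. At an unadjusted p under 0.05, 1 was lower and 0 higher, where 4.85% and 7.5% of all genes were. The median difference was -0.0025 (13 lower, 13 higher, where 43.1% of all genes had a lower mean). Voom on fragments also called 0. Chaf1a and Chaf1b of the CAF-1 complex were at 2.68 ± 0.195 and 2.49 ± 0.173 FPKM in Ctrl and 2.68 ± 0.0767 and 2.48 ± 0.463 in ZA, and Asf1b at 5.08 ± 0.387 and 4.89 ± 0.0178 (SD, n = 3). Rbbp7 was at 27.6 to 28.0 FPKM in Ctrl and 25.6 to 26.4 in ZA, without overlap (difference -0.09, limma adjusted p = 0.243). Hira, which deposits H3.3, differed by -0.07 (limma adjusted p = 0.578) and Anp32e, a chaperone of H2A.Z, by -0.09 (limma adjusted p = 0.525).

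Of the S phase genes, 36 of 44 were tested. Of these 36, 3 fell with an adjusted p under 0.05 in limma and 0 rose, where 0.163% and 0.204% of all genes did. At an unadjusted p under 0.05, 16 were lower and 0 higher, where 4.85% and 7.5% of all genes were. All 3 ZA values lay below all 3 Ctrl values in 14 of the 36 and above them in 0. The shares of all genes were 6.76% and 11.4%. The median difference was -0.09, with 28 genes lower and 8 higher, where 43.1% of all genes had a lower mean. Pcna, the sliding clamp of DNA polymerase, was at 176.6, 178.1 and 180.1 FPKM in Ctrl and 162.3, 157.7 and 156.9 FPKM in ZA (difference -0.17, SE 0.02, limma adjusted p = 0.0451). Mcm5 of the replicative helicase was at 6.26, 5.99 and 5.79 FPKM in Ctrl and 4.89, 4.46 and 4.65 FPKM in ZA (difference -0.31, limma adjusted p = 0.0486). Rrm2 of ribonucleotide reductase was at 4.23, 4.19 and 3.89 FPKM in Ctrl and 3.27, 3.01 and 3.07 FPKM in ZA (difference -0.31, limma adjusted p = 0.0486). The groups of these 3 genes did not overlap, but leaving out any 1 library left 0 or 1 of the 36 genes with an adjusted p under 0.05. Top2a was at 4.74 ± 0.251 and 4.28 ± 0.174 FPKM without overlap (difference -0.12, limma adjusted p = 0.362) and Mki67 at 3.29 ± 0.145 and 3.11 ± 0.0563 (SD, n = 3; difference -0.06, limma adjusted p = 0.622). The summed neutrophil and progenitor markers, given above, overlapped between the groups, with 4 of 7 tested genes lower in ZA at an unadjusted p under 0.05, and their part in the S phase values was not tested.

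**Figure D5:**
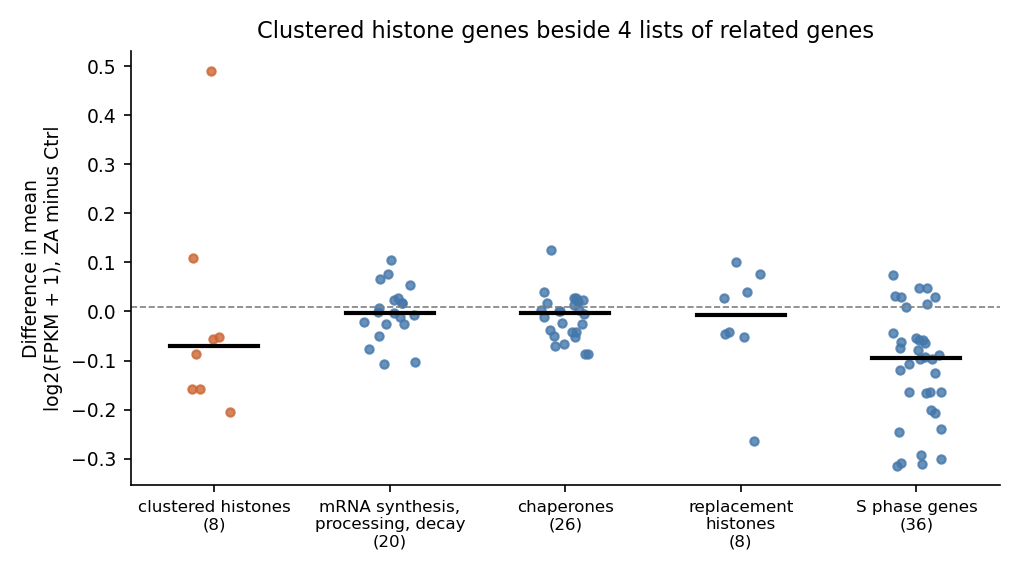
Difference in mean log2(FPKM + 1) between ZA and Ctrl (vertical axis) for each tested gene of the clustered histones and of 4 lists of related genes, with the number of genes in brackets, the list's median as a bar and the median of all genes (0.01) as a dashed line. The median is -0.09 for the S phase genes and -0.07 for the clustered histones, and the single high point of the clustered histones is H2ac19 (0.49).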

How the data were processed

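BMDMs were sequenced as 150 bp paired-end libraries, 3 Ctrl and 3 ZA, grouped by the sample labels. The authors deposited a table of FPKM values, fragments scaled by gene length and library total. The submitters' processing notes name the build mm9, while the aligner, counter and annotation are not given in the sources used here. In all but 11 of 35434 rows the symbol and values run together, and 35431 rows were restored from the number format and the rule that each FPKM is a whole number of fragments at 1 gene length. The 11 intact rows were restored identically, 3 rows were left out, and the rows held 99.7% of each library's fragments. Where several cuts stayed possible, the best had to be less likely by chance by at least 3 powers of 10, and with a value of 10 FPKM or more the 6 values had to lie within 30-fold.

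log2(FPKM + 1) was compared with limma 3.58.1 in R 4.3.3 (lmFit, eBayes with a trend), two-sided, for genes whose FPKM averaged 1 or more. Python 3.11.15 with pandas 2.3.3 read the tables. The comparison was tested on simulated counts with changes larger than those of the histone genes tested, and the restoration on made-up rows. How well differences as small as those of most histone genes are found was not tested. The alternatives were another pseudocount, other filters, centring, quantile normalization, no trend, a replicate block, leaving out each library and voom on fragments. Fragment limits cover counting error only. The members and lists were chosen with earlier results of these data known. Named are all members above 0 in every library, and of each list the genes called, the 3 with the largest moderated statistic and 16 genes fixed by name. Sequences are from RefSeq (GRCm38.p6) and GENCODE M21 (GRCm38). Symbols were not matched to coordinates of mm9.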

Additional observations from a re-analysis of the deposited data

How the results depend on the processing

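Over all genes 36 were called, against 1 without a filter or without a trend, 20 with quantile normalization, 81 with the replicate block, 132 with voom on fragments (also in both voom fits added after the data were seen), 15 with the FPKM of H2ac18 and H2ac19 summed, also added then, and 0 to 25 on leaving out 1 library (0 without ZA replicate 2). Among the clustered histone genes the 1 call, H2ac19, stood with a pseudocount of 0.1, median centring and the replicate block, and 0 were called without a filter, with a mean FPKM of at least 5 (which H2ac19 does not reach), with quantile normalization, without a trend, with each voom fit, with the FPKM of H2ac18 and H2ac19 summed and on leaving out any 1 library. The median difference of the 8 genes, -0.07, was -0.16 at a mean FPKM of at least 5, -0.13 (-0.125) with both voom fits and -0.121 to -0.0235 on leaving out 1 library. On leaving out 1 library the differences kept their sign but ran from -0.24 to -0.0882 for H2bc4, -0.291 to -0.0472 for H4c9, -0.147 to -0.0124 for H3c15 and 0.0231 to 0.232 for H2bc8, while H1f2 (-0.183 to -0.11) and H2ac19 (0.432 to 0.534) moved less. H2ac18 and H2bc21 turned to 0.03 and 0.01 without Ctrl replicate 1 and 3. The median of the mRNA synthesis, processing and decay list was -0.0147 with median centring and -0.0126 with quantile normalization. That of the chaperones was 0.00768 at a mean FPKM of at least 5, -0.0149 and -0.0158 with those 2 scalings and -0.0172 to 0.00699 on leaving out 1 library. For S phase genes the median was -0.107 with median centring and voom and -0.109 to -0.0805 on leaving out 1 library, and the 3 calls became 0 without a filter or trend, 5 with voom and 0 to 1 on leaving out 1 library. Of the replacement histones 1 was called at a mean FPKM of at least 5, with the replicate block and with voom. As shares of fragments, which favour long genes, H1 was 54.3% (57.9% of FPKM), H2A 1.6% (2.17%), H2B 40.4% (34.1%) and H4 2.22% (4.25%) over the 6 libraries. The causes of the other changes were not tested.

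The replicate number was not used in the main fit, and the labels do not say whether libraries with the same number belong together. Libraries with the same number deviated together with correlations of 0.285, 0.0394 and 0.281. With the replicate block the limma adjusted p of H1f2 was 0.0516 and of H2bc4 0.0772, against 0.203 and 0.446 without it. Genes with few fragments limit the rest: 43 of the 67 histone genes had fewer than 10 fragments in all.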
